A study of Mus musculus with 2 samples.

Results

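The genes described here run programmed cell death and the p53 response in the testis: the BCL2 family, the caspases and their regulators, the death receptors with their adaptors, and p53 with its restrainers and targets. They are 48 named genes, and their probe sets were taken where the platform's probe-to-gene table gives that gene as the only symbol. This found 92 of the 22626 probe sets that are not controls, which read 44 of the 48 genes. Bnip3l was read only by probe sets that also name its pseudogene, and Bax, Ripk1 and Trp53 had no probe set of their own, so these 4 were not compared. Another 8 members, Bak1, Bcl2, Bmf, Bbc3, Casp1, Fas, Fasl and Tnfrsf10b, were too dim on both arrays to be compared, which leaves 36.

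Testes of mice aged 17 days, of mixed 129SV and C57BL background, were profiled as wild type and as UBR2-/-, which lack the ubiquitin ligase UBR2. Each genotype had 1 array, for which the submitters name 2 testes of different animals of one litter. Not given in the sources used here are how the Ubr2 gene was disrupted and whether the RNA was pooled. With 1 array per genotype there is no replicate check and no test, and the values that follow stand for these arrays only.

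In the intrinsic pathway of cell death, BH3-only proteins free the pore-forming BCL2 relatives from the survival members, the mitochondrial outer membrane opens, and cytochrome c assembles APAF1 and caspase 9 into the apoptosome. In the extrinsic pathway, ligand-bound death receptors recruit FADD and caspase 8. p53, held down by MDM2 and MDM4, switches on genes of both pathways and of cell cycle arrest, and spermatocytes that fail a meiotic checkpoint are known to be removed by apoptosis.

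Values are probe set signals on the authors' scale, and a log2 ratio is UBR2-/- over wild type for the brightest probe set of a gene. Signals under the 40th percentile of an array, 24.4 for wild type and 24.7 for UBR2-/-, were raised to that floor. The targeted gene, Ubr2, read 57.2 in wild type and 14.3 in UBR2-/-, the latter under the floor. Over the 8091 compared genes the median log2 ratio was 0.07. Where a gene had several probe sets, their disagreement gave an SD of a single log2 ratio of 0.24 for dim, 0.18 for middling and 0.14 for bright signals. This SD comes from the same arrays and leaves out the spread between animals.

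The cell death and p53 genes lay on the whole slightly above the other genes of the testis, and few stood far apart. Among the 36 compared members, 4 reached a 1.5-fold higher signal on the UBR2-/- array: Tnfrsf12a, Pmaip1, Gadd45b and Gadd45a. That is 11.1% of the members, beside 4.21% of all compared genes. At least 1.5-fold lower were 2 members, Bad and Diablo, or 5.56% beside 7.71% of all compared genes. The other 30 lay between. Tnfrsf12a was the 1 member at least 2-fold higher (2.78% of members, beside 0.346% of all genes), and 0 were at least 2-fold lower, beside 3.52% of all genes. The median log2 ratio of the members was 0.22, with quartiles of -0.03 and 0.44, against 0.07 for all compared genes, and 23 members lay above that median and 13 below it.

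The deposited scaling bears on these directions. For the 42 bacterial and phage control probe sets the median was 0.35, and scaling on them lowers every ratio by that amount. With that scaling 1 member, Tnfrsf12a, was at least 1.5-fold higher and 3 (Bad, Diablo and Mdm4) were at least 1.5-fold lower, beside 0.457% and 20.1% of all genes. Ratios between 0 and 0.35 turn below 0 with it, while the place of each member relative to all genes does not change.

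**Figure D1:**
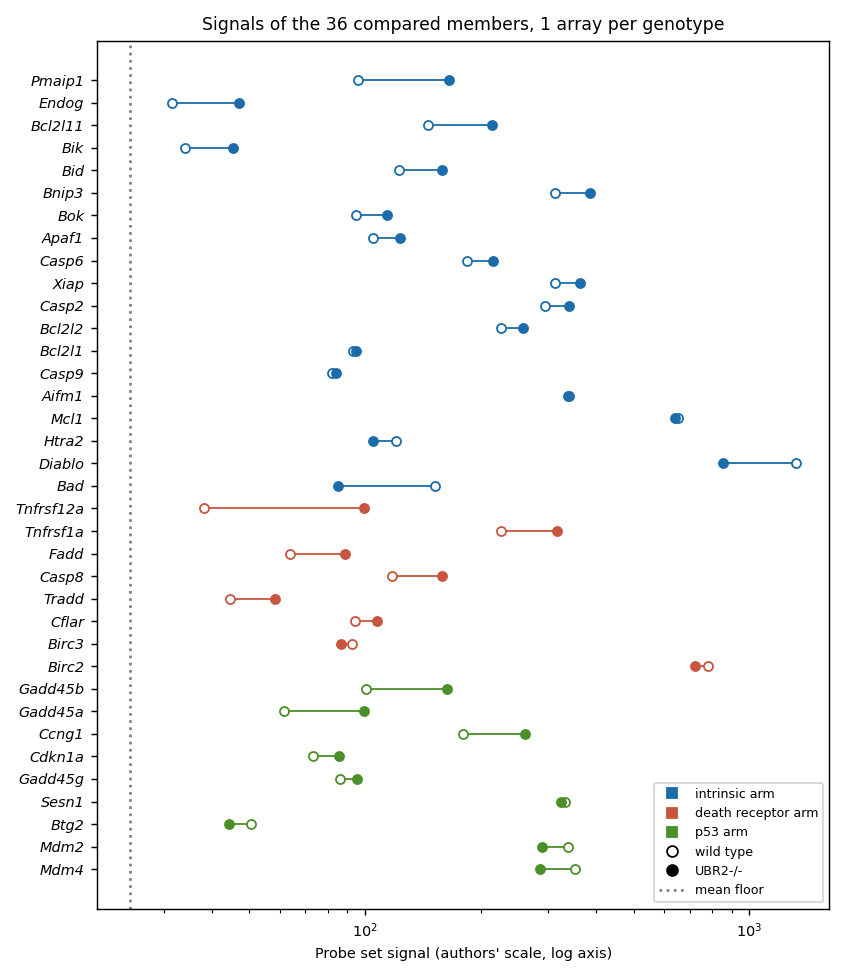
Signal of each of the 36 compared members on the wild type array (open circle) and the UBR2-/- array (filled circle), on a log axis in the authors' units, with the mean floor of 24.55 as a dotted line and colours for the intrinsic, death receptor and p53 arms. The longest line is that of Tnfrsf12a, from 38.2 to 99.6, while Bad and Diablo are among the genes with the open circle on the right. Levels of different genes rest on different probes and are not comparable.

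Cell type markers differed between the arrays, and their values stand beside all that follow. The marker lists were chosen with earlier results of these data known, so their counts and sums describe the listed genes only. All 12 markers of pachytene and later germ cells were 1.5-fold lower or more in UBR2-/-, and their summed signal was 11635 in wild type and 2016.4 in UBR2-/-. Early germ cell markers summed to 10884.9 and 10622.9, with 2 of 8 above the all-gene median. The near-equal sums hide genes that moved apart. Ddx4 had 1527.4 and 896.5, or 1.70-fold lower, and Stra8 had 612.7 and 868.4, or 1.42-fold higher. The 2 probe sets of Kit had log2 ratios of -0.07 and 0.97. Ddx4 was the 1 gene of this list past 1.5-fold by its brightest probe set, and 7 lay between. Among the defining genes, Sycp3, of the synaptonemal complex, had 2904.1 and 2954.7, and Sox9, of Sertoli cells, had 89.5 and 109.4, so both labelled tissues held meiotic germ cells and Sertoli cells.

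Sertoli and peritubular myoid markers went the other way from late germ cell markers, and other somatic markers were divided or lower. Sertoli cell markers summed to 9527.5 and 12215.4, with 9 of 10 above the all-gene median and a median log2 ratio of 0.35. Peritubular myoid markers summed to 2564.4 and 3684.9, with 7 of 7 above it and a median of 0.50. The 5 compared Leydig cell markers summed to 993.8 and 1013.8, with 3 above and 2 below the all-gene median. The 6 compared endothelial markers summed to 195.7 and 250.9, with 3 on either side of it. Of 10 compared macrophage and leukocyte markers 8 lay below the all-gene median, with sums of 935.7 and 866, and all 6 lymphocyte markers read by the array were too dim to compare. No marker was at a signal of 0 on both arrays. The part of these shifts in the members' values was not tested, and in whole testes fewer cells of a type and less RNA per cell cannot be told apart.

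**Figure D2:**
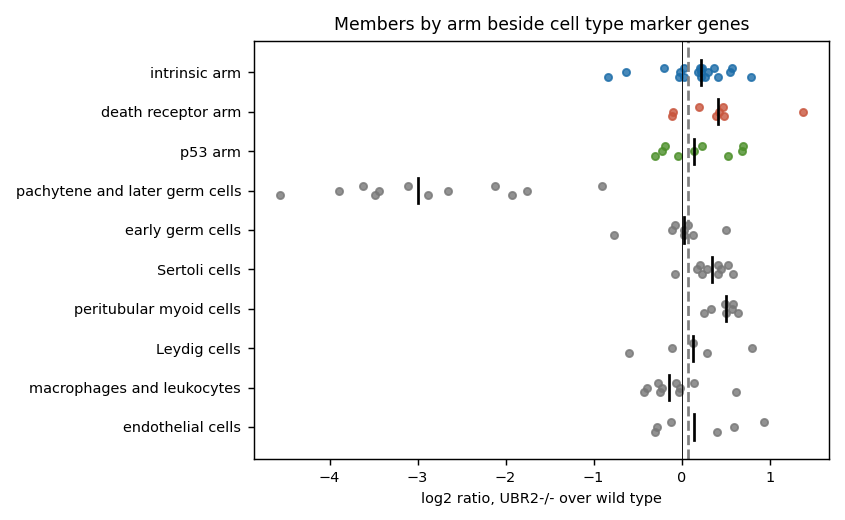
Log2 ratios (UBR2-/- over wild type) of the compared members by arm and of marker genes by cell type, 1 point a gene, with the median of each row as a black bar and the median of all compared genes as a dashed line. The medians of the arms are 0.22, 0.41 and 0.14, beside 0.35 for Sertoli, 0.50 for myoid and -2.99 for pachytene and later germ cell markers.

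The death receptor arm is a list of 13 genes that also holds Tnfrsf12a and Casp1, which were not placed there as recruiters of FADD. The arm had a median log2 ratio of 0.41 over its 8 compared genes, the highest of the 3 arms in this setting. Its excess over the all-gene median, 0.34, depends on the treatment of low signals: a floor at the 60th percentile gave 0.13 and no filter gave 0.088, in both cases under the 0.15 and 0.17 of the intrinsic arm. The all-gene median had 6 of them above it and 2 below. Tnfrsf12a, the receptor for the cytokine TWEAK, read 38.2 in wild type and 99.6 in UBR2-/-. It was 2.61-fold higher, a log2 ratio of 1.38 that ranked 7 from the top of 8091 genes. Its other probe set read 42.2 and 92.7, a log2 ratio of 1.14. That one alone is left when probe sets that can bind several transcripts are dropped. Both probe sets placed the gene more than 2-fold higher. Both lie in the dim range, and the gene fell out of the comparison when the floor was put at the 60th percentile.

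The promoter of Tnfrsf12a is printed because the gene stands farthest from the rest. It is the 250 bases before the start site from RefSeq, GRCm38.p6, chr17:23677450-23677699, minus strand, 5′ to 3′, and the capitals mark the 1 match to a MYB motif (AACNGCC on either strand).
Tnfrsf12a: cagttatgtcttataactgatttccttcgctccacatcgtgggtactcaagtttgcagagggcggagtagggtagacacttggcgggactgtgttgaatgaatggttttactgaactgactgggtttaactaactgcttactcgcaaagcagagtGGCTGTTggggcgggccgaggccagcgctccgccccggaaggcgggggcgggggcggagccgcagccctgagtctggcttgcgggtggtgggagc
That motif stands in 9.83% of all 32841 promoter windows of this length, so the match describes the sequence only.

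The classical receptor and its adaptors were higher by smaller amounts. Tnfrsf1a, the main receptor for TNF, read 226.6 in wild type and 315.8 in UBR2-/-, or 1.39-fold higher. Fadd, the adaptor that brings caspase 8 to the receptors, had 63.9 and 88.7, or 1.39-fold. Tradd, the adaptor of TNF receptor signalling, had 44.6 and 58.5, or 1.31-fold by its brighter probe set. The dimmer probe set of Tradd, with 20.5 and 28.3, was under the wild type floor. Casp8, the caspase that starts the extrinsic cascade, had 118 and 158.9, or 1.35-fold. These 4 genes, the chain from receptor to caspase, had log2 ratios from 0.39 to 0.48, and between 8.06% and 13.5% of all genes were higher.

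The inhibitors of this arm lay close to the other genes. Cflar, which blocks caspase 8 at the receptor, had 94.2 and 107.7, a log2 ratio of 0.19, with 0.26 in its second probe set. Birc2 and Birc3, ubiquitin ligases that restrain cell death at the TNF receptor, had -0.11 (780.5 and 723.3) and -0.10 (92.6 and 86.6). The 3 inhibitors thus lay on both sides of the all-gene median. The receptor Fas had signals of 6.7 and 6.9 and its ligand Fasl at most 4.5, and Tnfrsf10b, the TRAIL receptor, had at most 11.6, all far under the floor. Casp1, which matures interleukin-1 in leukocytes, had 13 and 12.7 and was under it too.

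In the intrinsic arm Pmaip1, Bcl2l11 and the dim Endog lay well above the other genes, and Bad and Diablo lay well below them. Over the 19 compared genes of 25 the median was 0.22, with 12 above and 7 below the all-gene median. Of the 6 compared BH3-only and BNIP3 genes 5 lay above it by their brightest probe set, and 4 when Bid is left aside, whose probe sets disagreed in sign. Pmaip1, which encodes NOXA, a BH3-only protein that neutralises MCL1, read 96.1 and 165.6 in its 1 probe set, or 1.72-fold higher. It ranked 94 from the top of 8091 genes. Bcl2l11, which encodes BIM, had 146.2 and 214.7, or 1.47-fold, and its second probe set over the floor read 56.8 and 92, a log2 ratio of 0.70. Both were higher on the UBR2-/- array, and the 3 dimmer probe sets of Bcl2l11 lay at or near the floor.

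The remaining BH3-only genes had smaller or divided values. Bik had 34 and 45.3, a log2 ratio of 0.41, near the floor on both arrays. Bnip3, a mitochondrial protein known for its part in mitophagy, had 312.3 and 384.3, or 1.23-fold higher. The probe sets of Bid, the protein that caspase 8 cuts to link both pathways, disagreed in sign. Its brighter probe set read 122.9 and 158.4 (log2 ratio 0.37) and the dimmer read 44.3 and 28 (-0.66), so no direction can be given for Bid. Bmf and Bbc3, which encodes PUMA, were under the floor with at most 1.1 and 13.9.

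Bad, a BH3-only protein that binds BCL2 and BCL-XL unless it is phosphorylated, had 152.3 and 85 and was 1.79-fold lower. Its second probe set read 114.1 and 88.1, a log2 ratio of -0.37, and this probe set is the one left when those that can bind several transcripts are dropped. Both probe sets had the lower signal on the UBR2-/- array, and only the brighter passed 1.5-fold.

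The survival genes lay close to the other genes. Mcl1 was read by 6 probe sets with log2 ratios from -0.16 to 0.17, and its brightest had 653.3 and 640.1. Bcl2l1, which encodes BCL-XL, had 93.1 and 95.1 in its brightest probe set, and its dimmer probe sets reached down to -0.40. Bcl2l2, which encodes BCL-W and is known to be needed for sperm production in mice, had 225.8 and 257.9, a log2 ratio of 0.19. Bcl2 itself was under the floor with 1.6 and 0.6. For Mcl1, Bcl2l1 and Bcl2l2 the median was 0.03, beside 0.07 for all genes. Bok, the 1 pore-forming member that was compared, had 94.7 and 113.9, or 1.20-fold higher, and Bak1 was under the floor at 15.5 and 13.2.

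Among the apoptosome scaffold and the proteins released from mitochondria the values went both ways. Diablo, also called SMAC, which relieves caspases of XIAP, read 1322.9 and 854.9, or 1.55-fold lower, at rank 562 from the bottom. Its other probe set was far under the floor. Htra2, a serine protease of the intermembrane space, was lower in both probe sets, with 120.7 and 105 in the brighter and 118.9 and 90.5 in the other. Endog, a mitochondrial nuclease, had the opposite direction, with 31.6 and 47 (log2 ratio 0.57) and 27.2 and 34.5 (0.34), both just over the floor. Apaf1, the scaffold of the apoptosome, had 104.9 and 123.2, a log2 ratio of 0.23, with 0.30 in its second probe set.

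The caspases of the intrinsic arm differed little. Casp9, which the apoptosome activates, had 82.4 and 84, and Casp2 and the executioner Casp6 had log2 ratios of 0.21 (294.5 and 340.6) and 0.22 (184.7 and 215.8). All 3 were within 0.15 of the median of all genes. The X-linked members were Xiap, the caspase inhibitor, with 311.8 and 362.5 (log2 ratio 0.22), and Aifm1, a mitochondrial flavoprotein, with 340.1 and 336.6 (-0.01). Both lay below the median of 0.35 of the 274 compared X-linked genes, although the second probe set of Xiap over the floor had 0.56.

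**Figure D3:**
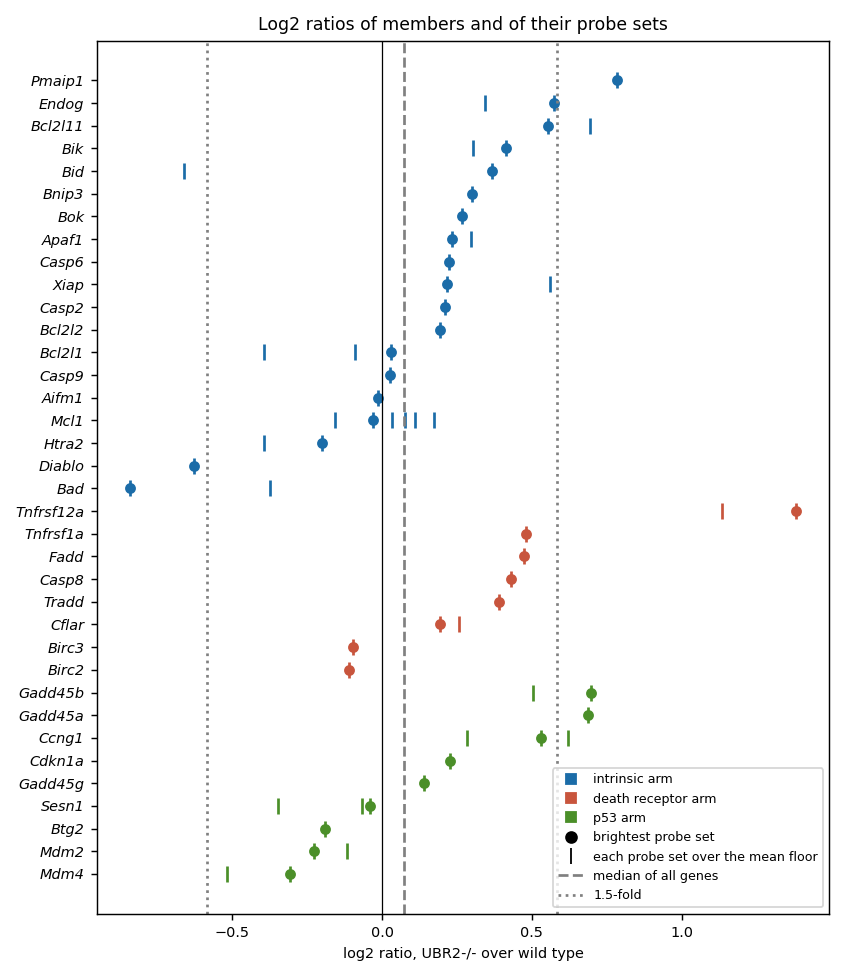
Log2 ratio of each compared member by its brightest probe set (circle) and by every probe set over the mean floor (tick), with the median of all genes dashed and 1.5-fold dotted. Of 17 members with several such probe sets, 14 keep them on 1 side of 0, and Bid, Bcl2l1 and Mcl1 do not.

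The p53 arm was divided, with its restrainers lower, Gadd45a, Gadd45b and Ccng1 higher and the others in between. Its 9 compared genes of 10 had a median of 0.14, with 5 above and 4 below the all-gene median. Mdm2, the ubiquitin ligase that degrades p53 and is itself a p53 target, had 338.1 and 288.7, or 1.17-fold lower. Mdm4, its partner, had 352.9 and 285.2, or 1.24-fold lower, and -0.52 in its second probe set. All 4 probe sets of Mdm2 and Mdm4 were lower on the UBR2-/- array, and none passed 1.5-fold.

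The 3 GADD45 genes encode small related stress proteins that bind MAP kinase kinase kinases and cell cycle proteins. Gadd45a, a classical p53 target, read 61.7 and 99.3 in its 1 probe set, or 1.61-fold higher. Gadd45b had 100.9 and 163.7, or 1.62-fold higher, with 82.9 and 117.6 (log2 ratio 0.50) in its second probe set. Gadd45g had 86.4 and 95.2, a log2 ratio of 0.14. Gadd45a and Gadd45b thus stood at ranks 182 and 172 from the top of 8091 genes, and Gadd45g near the middle.

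The other genes of this arm did not share a direction. Ccng1, the p53-induced cyclin G1, was higher in all 3 probe sets, with 180.5 and 260.8 in the brightest (1.44-fold) and log2 ratios from 0.28 to 0.62. Cdkn1a, the cell cycle inhibitor p21, had 73.4 and 85.9, a log2 ratio of 0.23. Btg2, an antiproliferative p53 target, had 50.7 and 44.4 (-0.19), and Sesn1, which restrains growth signalling, was below 0 in all 3 probe sets, from -0.35 to -0.04. From the other arms, 5 members were listed as also induced by p53, a chosen list that need not be complete. Of these, Pmaip1 was compared, Bbc3, Fas and Tnfrsf10b were under the floor and Bax had no probe set. Over the 10 compared genes of the p53 arm, its restrainers included, and of this list, the median was 0.18. The all-gene median had 6 of the 10 above it and 4 below.

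A search of the promoters shows where a p53 response element lies close to an annotated start site. These sequences are printed because their genes' signals can be set beside them. A gene can have several start sites, and whether the one beside an element is its main one was not checked. The element was searched as a pair of adjoining half-sites of 20 bases in all, in the 250 bases before each start site. At most 3 mismatches were allowed, and none at the core C and G of each half-site. It reads the same on both strands. It stood in 1.14% of all 32841 windows and in 5 of 57 windows (8.77%) of the 42 members searched, those of Ccng1, Cdkn1a, Sesn1, Bbc3 and Trp53. The members were chosen to include known p53 targets, so the larger share is no finding about them. Pmaip1, Tnfrsf10b, Bnip3l, Htra2, Tradd and Bik were not searched. The lines give RefSeq sequence of GRCm38.p6, 5′ to 3′ on the gene's strand, with the element in capitals, for Ccng1 at chr11:40755442-40755501 (minus strand), Cdkn1a at chr17:29090908-29090967 (plus strand), Sesn1 at chr10:41887246-41887305 (plus strand) and Bbc3 at chr7:16309466-16309525 (plus strand).
Ccng1: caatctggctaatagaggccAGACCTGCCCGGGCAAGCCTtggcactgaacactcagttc
Cdkn1a: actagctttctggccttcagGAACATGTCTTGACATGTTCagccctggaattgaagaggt
Sesn1: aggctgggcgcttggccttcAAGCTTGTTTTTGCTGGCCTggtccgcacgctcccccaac
Bbc3: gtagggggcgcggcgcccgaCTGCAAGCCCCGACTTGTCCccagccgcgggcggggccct
Ccng1 and Cdkn1a hold the element with 1 mismatch, and Sesn1 and Bbc3 with 3. The log2 ratios beside them are 0.53 for Ccng1, 0.23 for Cdkn1a and -0.04 for Sesn1, and Bbc3 was under the floor with 7.1 and 13.9. The values of Cdkn1a and Sesn1 lie within the SD of a single ratio, 0.24 and 0.18, so no shared direction can be read from these genes. A match is a description of letters and not a shown site.

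The promoters of Gadd45a and Gadd45b are printed as those of a pair of related genes that were higher together. They are the 250 bases before the start site in the same build, at chr6:67037408-67037657 (minus strand) and chr10:80929841-80930090 (plus strand).
Gadd45a: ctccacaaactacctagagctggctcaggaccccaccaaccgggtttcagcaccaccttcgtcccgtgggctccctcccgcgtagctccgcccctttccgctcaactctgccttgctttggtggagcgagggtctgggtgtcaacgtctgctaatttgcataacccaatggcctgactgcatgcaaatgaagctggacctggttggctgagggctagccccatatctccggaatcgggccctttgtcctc
Gadd45b: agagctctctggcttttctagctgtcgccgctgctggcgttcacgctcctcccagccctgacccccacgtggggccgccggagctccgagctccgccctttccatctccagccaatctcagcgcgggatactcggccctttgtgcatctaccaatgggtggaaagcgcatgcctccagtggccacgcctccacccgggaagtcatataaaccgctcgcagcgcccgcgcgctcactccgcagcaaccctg
Neither window holds the p53 element or the 3 other motifs searched on both strands, which were MYB (AACNGCC), AP-1 (TGANTCA) and CRE (TGACGTCA). Those of Bad and Diablo, the members that were lower, hold none of the 4 either. Among all windows AP-1 was found in 6.75% and CRE in 1.55%, against 2 and 2 of the 57 member windows, and MYB in 7 of the 57. The printed matches do not overlap one another.

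**Figure D4:**
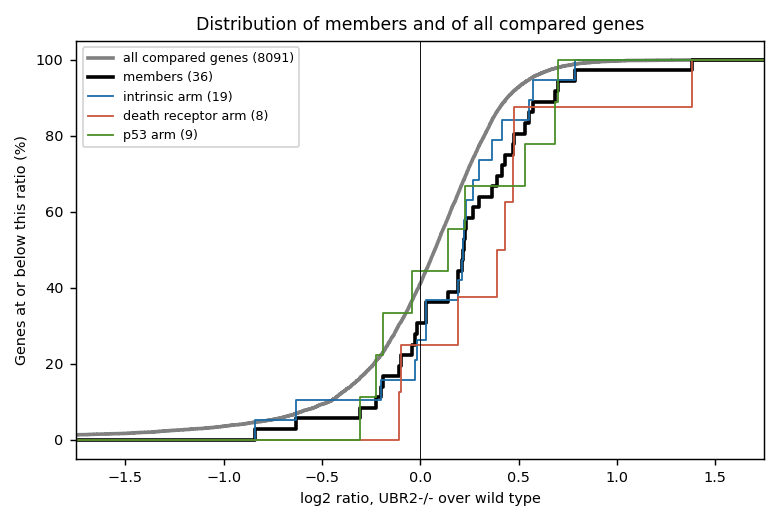
Cumulative share of genes (percent) at or below each log2 ratio, for all 8091 compared genes, the 36 members and the 3 arms. The members' curve lies to the right of all genes around the middle, with a median of 0.22 against 0.07, and the death receptor arm has a median of 0.41.

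A wider list of 85 other genes of cell death, TNF receptor and p53 signalling was set beside the members. Of these 56 were compared, with a median log2 ratio of 0.16, and 31 lay above and 25 below the all-gene median. At least 1.5-fold higher were 4 (7.14%): Plk2, a p53-induced kinase, with 106.7 and 181.1, Dapk1, a death-associated kinase, with 43.1 and 71.1, Tnfrsf21, the death receptor DR6, with 39.3 and 62.1, and Ltbr, the lymphotoxin receptor, with 37.4 and 57.2. Their log2 ratios were 0.76, 0.72, 0.66 and 0.61. All compared genes had 4.21% past this threshold.

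At least 1.5-fold lower were also 4 of the wider list, a share of 7.14% that is close to the 7.71% of all compared genes. Cyct, the cytochrome c of the testis, had 858.3 and 276.5 and was 3.10-fold lower, the 1 gene of this list beyond 2-fold. The general cytochrome c gene Cycs had 1658.4 and 1851.5, a log2 ratio of 0.16. Traf2 and Traf5, adaptors that TNF receptors recruit, had log2 ratios of -0.77 (110.7 and 64.8) and -0.89 (47.2 and 25.4), and Dap, a death-associated protein, had -0.60 (308.9 and 204.5). Traf2 and Traf5 were read by 1 probe set each, and the UBR2-/- signal of Traf5 lay just over the floor of 24.7. Traf6 went the other way, with log2 ratios from 0.43 to 0.57 over its probe sets above the floor. The compared TRAF genes thus had no shared direction, and the others of the list could not be compared. Nfkbia, an inhibitor and target of NF-kB, had 1101.8 and 1443.9, a log2 ratio of 0.39 with 4 probe sets from 0.02 to 0.52. The kinases Atm and Atr, which act before p53, had 0.15 and -0.26, and Chek1 and Chek2 had 0.21 and 0.28, so these 4 stood within 1.5-fold.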

How the data were processed

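Biotin-labelled RNA of testes was hybridised to Affymetrix mouse arrays, 1 for wild type and 1 for UBR2-/-, per the labels. The authors deposited linear intensities, 1 signal per probe set, and MAS5 is named in the submitters' processing notes without version or settings. The mean of each array, trimmed by 2% at both ends, was 150.04, so the authors' common scaling was kept. Of 22626 probe sets that are not controls, 20380 carried a single symbol in the annotation of the platform; symbols were updated through the Entrez identifier with the GRCm38.p6 gene table (20349 matched to a chromosome). Signals under the 40th percentile of an array were raised to that floor, each of 12393 genes was its brightest probe set, and the 8091 genes with a mean signal of at least 24.55 were compared. The SD between probe sets is the median absolute difference of the 2 brightest probe sets of 2894 genes, scaled to an SD of 1 probe set.

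No test is possible with 1 array per genotype, and the number of arrays limits the precision. Counts use 1.5-fold and 2-fold. The members and gene lists were chosen with earlier results of these data known. All 48 members are accounted for, and the other pathway genes named are those past 1.5-fold, with Cycs, Traf6, Nfkbia, Atm, Atr, Chek1 and Chek2 added after their values were seen; the promoter motifs were also chosen then. Alternatives were median, quantile, loess (span 0.3) and spike-in scaling, floors at the 25th and 60th percentiles, a pseudocount of 10, averaging over probe sets, dropping probe sets that can bind several transcripts, and no filter. RNA quality, as the 3' over the 5' control signal, was 1.75 and 1.64 for Actb and 0.796 and 0.822 for Gapdh. The ratio procedure was tested on simulated data. Python 3.11.15, numpy 2.4.6, pandas 2.3.3 and statsmodels 0.14.6 were used.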

Additional observations from a re-analysis of the deposited data

How the results depend on the processing

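Under 10 alternatives the members' median stayed above that of all genes, by 0.13 to 0.16 against 0.15 in the reported setting, and the intrinsic arm's by 0.14 to 0.17. The p53 arm's excess of 0.07 turned to -0.03 with the floor at the 60th percentile, so its side is not settled. The death receptor arm's excess of 0.34 was 0.13 with that floor, where fewer genes are compared, and 0.088 with no filter, where genes at the floor on both arrays enter. With the floor at the 25th percentile it was 0.22. The order of the arms therefore changes: the intrinsic arm had 0.15 at the 60th percentile and 0.17 with no filter, where the p53 arm had 0.12. With the reported setting 4 of 36 members were at least 1.5-fold higher, beside 4.21% of all genes. With the floor at the 60th percentile these were 2 of 27, beside 2.18%, and with spike-in scaling 1 of 36, beside 0.457%. They were 5 of 40 with the floor at the 25th percentile, beside 7.01%. Averaging over probe sets also gave 5, of 36, beside 3.87%. Dropping probe sets that can bind several transcripts gave 5 of 28, beside 4.42%. Members at least 1.5-fold lower numbered 2, beside 7.71% of all genes, and 3 with spike-in scaling, beside 20.1%. Without probe sets that can bind several transcripts, 1 of 28 was left, beside 7.80%, as Bad went to -0.37. Members at least 2-fold higher numbered 1, and 0 with that higher floor, where Tnfrsf12a is no longer compared, and 1 was at least 2-fold lower with spike-in scaling, which takes Bad to -1.19, against 0. With spike-in scaling Pmaip1, Gadd45b and Gadd45a had 0.43, 0.35 and 0.33, while Tnfrsf12a had 1.03 and Diablo -0.98. Diablo stayed past 1.5-fold under 10 of 10 alternatives and Tnfrsf12a under 9 of the 9 that compared it. None of the 6 members past 1.5-fold changed sign, and of the other members 15 crossed 0 under at least 1 alternative, mostly with spike-in scaling. No paired analysis was possible because each genotype has 1 array. Dim signals limit Tnfrsf12a, Bik, Endog and Tradd, whose wild type signals are within 2-fold of the floor.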

Other observations

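Bnip3l, a mitochondrial relative of Bnip3, was read by 3 probe sets that also name its pseudogene and therefore entered no comparison. Their signals on the wild type and UBR2-/- arrays were 323.5 and 325.7, 344.6 and 341.5, and 492 and 576, which gives log2 ratios of 0.01, -0.01 and 0.23.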
